A study of Rattus norvegicus with 6 samples.

Results

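Interferon response genes were examined in cultured rat mesenchymal stem cells (MSC) from 2 skeletal sites. The set was chosen by gene symbol and holds 39 genes, of which 38 were matched by symbol among the 30498 genes of the count table; Ifit1 is not analysed here. Of the 38, 31 passed a filter on low counts that 14836 genes passed in all, and 7 did not (Zbp1, Oas1a, Oasl, Isg15, Usp18, Rsad2 and Ifi44l).

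Type I interferons bind the receptor formed by IFNAR1 and IFNAR2, whose kinases JAK1 and TYK2 phosphorylate STAT2. STAT2 and IRF9 are subunits of the complex ISGF3, which binds interferon-stimulated response elements in the promoters of the interferon-stimulated genes. The products of those genes sense foreign RNA, degrade it, block its translation or hinder the release of virus. Many of them also have a basal level in cells that have met no interferon, and stem cells are known for such basal expression.

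Both groups were wild-type rat cells labelled as mesenchymal stem cells, 3 libraries each. The rbMSC came from the bone marrow of femurs and tibias, and the rcMSC from cranial bone marrow. Strain, age, sex and passage were not given in the labels used here, and no interferon or other agent is named for either group. Separate animals or cultures are not named in the labels, so each p-value is a measure of the spread between 3 libraries of a group that may be technical repeats. The study was on spinal cord injury and the transplantation of MSC from the skull, and its design names only the expression profiles of rcMSC against rbMSC.

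Total counts were 21340290 to 25170868 in rbMSC and 26179769 to 26928079 in rcMSC. The third rcMSC library stood apart: it differed from the other 2 of its group with a chi-square of 42.0 to 42.8 per degree of freedom over genes, where all other pairs within a group had 2.69 to 3.16. Results are therefore also given without it. Of the 13 MSC markers measured, all passed the low-count filter, with a summed level of 42600 to 42800 CPM in rbMSC and 61100 to 74800 CPM in rcMSC (CPM, counts relative to the TMM-scaled library size). Most of that sum was Col1a1 (mean 21200 CPM in rbMSC and 37900 CPM in rcMSC) and Col1a2 (15900 and 23300 CPM). By number, 6 of the 13 were higher in rcMSC and 6 lower, Thy1 and Pdgfrb among the lower. Of all genes tested, 22.6% were higher and 23.2% lower. Monocyte and macrophage markers were measured in both groups as well, at a summed 1340 to 1350 CPM in rbMSC and 814 to 845 CPM in rcMSC. Of 22 macrophage markers tested, 15 were lower in rcMSC and 1, Fcgr2b, was higher, while Cd163 (4 and 8 counts in rbMSC and rcMSC) and Marco (0 and 1) were at or near 0. In bulk RNA, fewer cells of a type and less RNA per cell cannot be told apart, and the part of the macrophage difference in the results below was not tested.

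The interferon response genes moved in both directions. In rcMSC, 11 of the 31 tested were higher (35.5%) and 6 were lower (19.4%) by edgeR's quasi-likelihood test at an adjusted p under 0.05, and 14 did not pass. Over all genes tested, 22.6% were higher and 23.2% lower, 45.8% in either direction, beside 17 of the 31 members. The guanylate-binding protein gene Gbp5 and the RNA-binding antiviral gene Ifit2 were the only members at least 2-fold higher, at 5.21-fold and 2.09-fold. The oligoadenylate synthetase-like gene Oasl2, the dynamin-like GTPase gene Mx1 and the tetherin gene Bst2 were the only members at least 2-fold lower. The other 9 genes that rose (Stat2, Irf2, Eif2ak2, Gbp2, Trim25, Parp9, Dtx3l, Samhd1 and Xaf1) and the other 3 that fell (Irf3, Adar and Parp12) had smaller changes, with a log2 change (log2 of the fold change, rcMSC over rbMSC) of 0.27 to 0.63 and of -0.31 to -0.22.

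**Figure D1:**
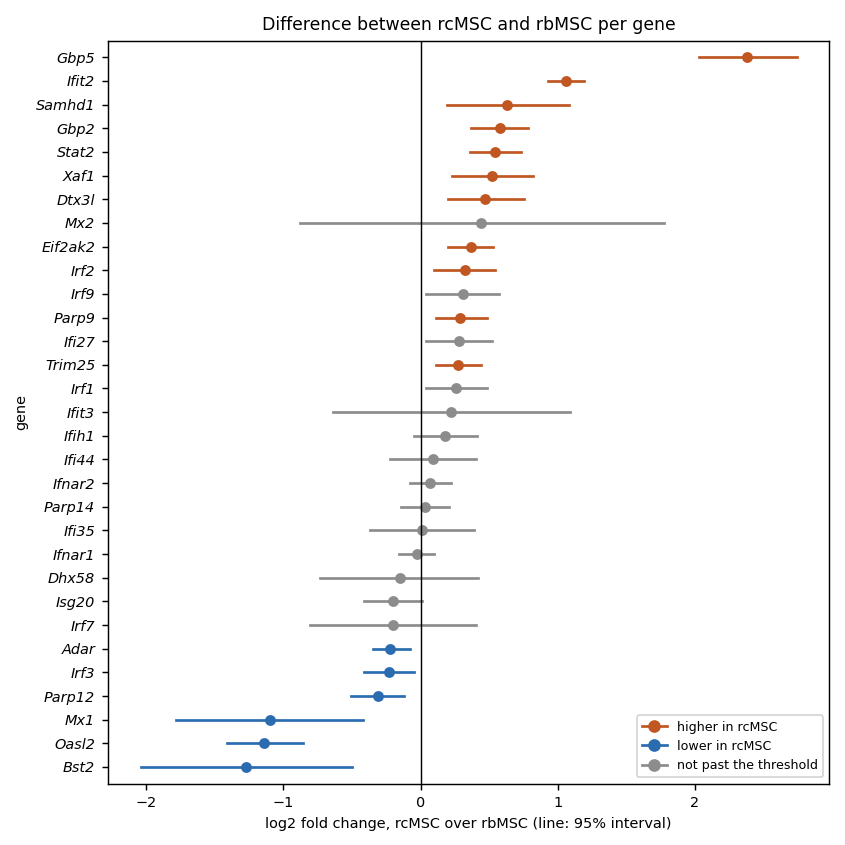
Log2 fold change of rcMSC over rbMSC (horizontal axis) for the 31 interferon response genes that passed the low-count filter, with lines for the 95% interval of the edgeR fit and colours for the call at an adjusted p under 0.05. Gbp5 lies at 2.38 and Ifit2 at 1.06, and Mx1, Oasl2 and Bst2 lie at -1.10, -1.14 and -1.27.

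The median log2 change of the 31 was 0.22, beside 0.02 over all genes tested. Against the rbMSC mean of CPM + 0.05, the median over the 31 was 0.289 in rcMSC replicate 1, 0.047 in replicate 2 and 0.152 in replicate 3 on the log2 scale. All 3 rcMSC libraries lay above all 3 rbMSC libraries in 13 of the 31 and below them in 7, where 28.3% and 28.8% of all genes tested did so, 57.1% in either direction. The count of calls depended on single libraries. The number called higher was 7 without rbMSC replicate 2. The number called lower was 3 without rbMSC replicate 1, without rcMSC replicate 1 or without rcMSC replicate 2, and 2 without rbMSC replicate 3. A fit on fewer libraries can also change the calls over all genes. Those shares are not given here for these fits, so the counts are not a result about the members. Without rcMSC replicate 3, 15 were higher and 6 lower of 32 tested, where 29.9% and 30.2% of all genes were. Stat2, Eif2ak2, Ifit2, Gbp2, Gbp5 and Xaf1 among the genes that rose, and Oasl2 among those that fell, passed the threshold with the same direction in all 14 alternative settings tried.

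The core letters of the interferon-stimulated response element were searched in the promoters of the members, because this is the site that ISGF3 and the interferon regulatory factors bind. RefSeq promoter windows of the build GRCr8, which cover 250 bases before to 50 after a gene's start, were matched by symbol for 30 of the 38 genes. The motif GAAA, then any 2 bases, then GAAA, read on both strands, was in 18 of the 30 (60%) and in 3.92% of the 33469 windows of the table, or 2.92% of the 11167 windows of genes that passed the low-count filter. It was in 5 of 9 members that rose (Dtx3l, Eif2ak2, Gbp2, Gbp5 and Xaf1), in 3 of 5 that fell (Bst2, Oasl2 and Parp12) and in 7 of 12 that did not pass the test. The core of the gamma-activated site, TTCNNNGAA, which reads the same on both strands, was in 8 of the 30 (26.7%) and in 8.87% of all windows. In Bst2 a match of this second motif overlapped the first. The stretches below show the first motif in genes that rose, genes that fell and genes near 0 counts, each 5′ to 3′ in the direction of transcription, upstream of the start, with the matches in capitals and positions in GRCr8. A match of these letters is a description of the window, not a shown binding site.
Gbp5 (rose; chr2:233910923-233910972, plus strand): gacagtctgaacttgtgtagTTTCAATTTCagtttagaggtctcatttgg
Gbp2 (rose; chr2:234005676-234005725, plus strand): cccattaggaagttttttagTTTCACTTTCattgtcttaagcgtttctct
Eif2ak2 (rose; chr6:21941118-21941153, plus strand): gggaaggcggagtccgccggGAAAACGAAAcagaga
Xaf1 (rose; chr10:57415904-57415934, plus strand): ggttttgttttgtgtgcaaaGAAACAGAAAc
Oasl2 (fell; chr12:47383307-47383356, minus strand): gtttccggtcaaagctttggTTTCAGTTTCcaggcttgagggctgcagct
Bst2 (fell; chr16:18255063-18255118, minus strand): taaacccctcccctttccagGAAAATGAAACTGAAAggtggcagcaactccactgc
Parp12 (fell; chr4:68850542-68850579, minus strand): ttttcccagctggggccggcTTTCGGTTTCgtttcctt
Oas1a (near 0 counts; chr12:41330405-41330460, plus strand): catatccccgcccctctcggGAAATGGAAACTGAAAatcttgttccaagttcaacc
Rsad2 (near 0 counts; chr6:48788238-48788287, minus strand): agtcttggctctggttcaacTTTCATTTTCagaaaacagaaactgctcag

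Windows with the motif were thus found at every level of expression. Gbp5 had it 56 bases before the start and Gbp2 31 bases before it, both on the reverse strand. Bst2 and Oas1a each had a pair of overlapping matches, beginning 131 and 41 bases before the start.

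The receptor was measured at like levels in both groups. Ifnar1 (ENSRNOG00000028594, chromosome 11, 30725790 to 30749979 in mRatBN7.2), the signalling subunit, had 153, 154 and 151 CPM in rbMSC and 156, 152 and 140 CPM in rcMSC replicates 1 to 3. The groups overlapped, and the log2 change was -0.03 (95% interval -0.16 to 0.10, edgeR adjusted p = 0.703). Ifnar2 (chromosome 11, 30613767 to 30668124), which carries the binding site for STAT2, had 45.1, 43.2 and 44.4 CPM in rbMSC and 46.7, 43.5 and 49.2 CPM in rcMSC. Its log2 change was 0.07 (95% interval -0.08 to 0.22, edgeR adjusted p = 0.43). For Ifnar2, 1127 of its 5588 exon bases are shared with its neighbour Il10rb on the same strand, and no label used here says how reads in shared bases were counted.

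Of the transcription factors, Stat2 and Irf2 rose and Irf3 fell. Stat2 (ENSRNOG00000031081, chromosome 7, 702495 to 718967), the ISGF3 subunit that activates transcription, had 38.2, 39.2 and 40.6 CPM in rbMSC and 61.6, 59.9 and 50.5 CPM in rcMSC. Every rcMSC library was above every rbMSC library, replicate 3 being the lowest rcMSC library. The log2 change was 0.54 (SE 0.08, edgeR adjusted p = 0.000453), and 0.63 without rcMSC replicate 3. Irf2, which competes with IRF1 for the same sites, had 18.5, 17.1 and 15.8 CPM in rbMSC and 20.7, 23.6 and 19.9 CPM in rcMSC. The groups did not overlap, and its log2 change was 0.32 (SE 0.10, edgeR adjusted p = 0.0231). It no longer passed with rbMSC replicate 2, rbMSC replicate 3 or rcMSC replicate 2 left out (edgeR adjusted p = 0.0723, 0.101 and 0.0934).

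Irf3, which is present before infection and switches on the interferon beta gene once phosphorylated, had 32.9, 32 and 30.3 CPM in rbMSC and 25.1, 26.8 and 29.2 CPM in rcMSC. All rcMSC libraries were lower, with the third only just so. The log2 change of -0.23 (SE 0.08, edgeR adjusted p = 0.0388) was the least stable call of the set. It was lost in 8 of 14 alternative settings, among them DESeq2 (adjusted p = 0.0544) and each library left out other than rcMSC replicate 3 (edgeR adjusted p = 0.0595 to 0.145). Without rcMSC replicate 3 it was -0.29 (edgeR adjusted p = 0.000753). Irf3 shares 178 of its 2204 exon bases with Bcl2l12 on the opposite strand. Bcl2l12 had a mean of 2.45 CPM in rbMSC and 1.88 CPM in rcMSC and did not pass (log2 change -0.37, edgeR adjusted p = 0.206). Irf7, the interferon-induced factor that amplifies the response, was low in both groups, with 1.64, 2.47 and 1.90 CPM in rbMSC and 1.2, 1.88 and 2.16 CPM in rcMSC. The groups overlapped, and the log2 change was -0.20 (95% interval -0.81 to 0.40, edgeR adjusted p = 0.572).

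Irf9 and Irf1 lay above the rbMSC libraries in all rcMSC libraries without passing the threshold. Irf9, the DNA-binding subunit of ISGF3, had 9.26, 8.83 and 7.72 CPM in rbMSC and 10.9, 11.3 and 9.60 CPM in rcMSC, a log2 change of 0.31 (edgeR adjusted p = 0.06). Irf1, an activator induced by interferon gamma, had 13.7, 13.6 and 16 CPM in rbMSC and 18.0, 17.6 and 16.2 CPM in rcMSC, a log2 change of 0.26 (edgeR adjusted p = 0.056). Without rcMSC replicate 3 both passed, at 0.38 (edgeR adjusted p = 0.0066) and 0.30 (edgeR adjusted p = 0.00671), and Irf1 also passed without rbMSC replicate 3, at 0.34 (edgeR adjusted p = 0.0383). Irf9 shares 1838 of its 1926 exon bases with Rnf31 on the same strand, so its counts may not give its level. Rnf31, a ubiquitin ligase subunit, had a log2 change of 0.12 (edgeR adjusted p = 0.305).

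Among sensors of nucleic acid and RNA-editing enzymes, Eif2ak2 rose and Adar fell. Eif2ak2 encodes PKR, the kinase that halts translation on binding double-stranded RNA. It had 43.4, 38.5 and 43.6 CPM in rbMSC and 56.9, 53.9 and 50.8 CPM in rcMSC. The groups were apart, with a log2 change of 0.37 (SE 0.08, edgeR adjusted p = 0.00297). Adar, which edits adenosine to inosine in double-stranded RNA and so keeps cellular RNA from activating the sensors, had 70.5, 66.5 and 65.0 CPM in rbMSC and 57.5, 56.6 and 59.5 CPM in rcMSC. Its log2 change was -0.22 (SE 0.06, edgeR adjusted p = 0.0143), and the call was lost without rbMSC replicate 1 or without rcMSC replicate 2 (edgeR adjusted p = 0.0747 and 0.0586). The RNA sensors MDA5 (Ifih1, log2 change 0.18, 95% interval -0.05 to 0.41) and LGP2 (Dhx58, -0.15, 95% interval -0.73 to 0.42) did not pass (edgeR adjusted p = 0.182 and 0.657).

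The IFIT proteins bind viral RNA and interfere with its translation. Ifit2 (ENSRNOG00000036604, chromosome 1, 232102570 to 232108635) had 54.7, 55.7 and 57.0 CPM in rbMSC and 114, 114 and 122 CPM in rcMSC. The libraries of each group lay close together and far from the other group. Its log2 change was 1.06 (SE 0.06, edgeR adjusted p = 2.72e-07), and 1.03 to 1.09 over the 14 alternative settings. Ifit3, which lies 5530 bases downstream of Ifit2 on the same strand with no gene between them, had 10 to 21 counts in the rbMSC libraries and 13 to 28 in the rcMSC libraries. Its log2 change was 0.22 (95% interval -0.64 to 1.09, edgeR adjusted p = 0.666), an interval that includes the value of Ifit2. Ifit1bl, beyond Ifit3 on the opposite strand and outside the set, was lower in rcMSC (log2 change -0.70, edgeR adjusted p = 0.0351). Per kilobase of exon, Ifit2 was the highest of all members in rcMSC, at 34.2 ± 1.37 CPM per kilobase, and Ifit3 had 0.402 ± 0.15 (SD, n = 3).

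The OAS enzymes make short oligoadenylates that activate the nuclease RNase L, and the OAS-like proteins are their relatives. Oasl2 (ENSRNOG00000028814, chromosome 12, 41709435 to 41722547) had 11.6, 12.2 and 13.3 CPM in rbMSC and 6.08, 5.01 and 5.84 CPM in rcMSC. It was 2.20-fold lower in rcMSC with no overlap, a log2 change of -1.14 (SE 0.12, edgeR adjusted p = 4.13e-05), and -1.16 without rcMSC replicate 3. Its neighbour Oasl, 13793 bases away on the same strand, had 2 counts over the rbMSC and 1 over the rcMSC libraries.

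Both guanylate-binding protein genes of the set rose, while the Mx genes did not. Guanylate-binding proteins are GTPases that assemble on pathogens and their vacuoles and are known as targets of interferon gamma. Gbp5 (ENSRNOG00000032240, chromosome 2, 231237748 to 231257061) had 5.57, 5.19 and 4.52 CPM in rbMSC and 28.7, 30 and 20.6 CPM in rcMSC. The rcMSC libraries were all far above rbMSC, with replicate 3 the lowest of them. The log2 change was 2.38 (SE 0.16, edgeR adjusted p = 1.45e-06), and 2.53 without rcMSC replicate 3. Gbp2 (ENSRNOG00000031743, chromosome 2, 231332284 to 231348571), which lies 75222 bases from Gbp5 on the same strand with 2 genes between them, had 20.1, 17.7 and 16.9 CPM in rbMSC and 26.7, 28.9 and 25.8 CPM in rcMSC. It was 1.49-fold higher, a log2 change of 0.58 (SE 0.09, edgeR adjusted p = 0.000578). Gbp4, between Gbp5 and Gbp2 but outside the set, had 58 counts over the rbMSC and 55 over the rcMSC libraries. Gbp4 did not pass (log2 change -0.27, edgeR adjusted p = 0.473). Reads from near-identical stretches of this gene family cannot be assigned with certainty, since no label used here says how multi-mapping reads were counted.

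Mx1 (ENSRNOG00000001959), a dynamin-like GTPase that blocks influenza viruses, had 1.40, 2.21 and 1.90 CPM in rbMSC and 0.619, 0.81 and 1.16 CPM in rcMSC. The groups were apart by little, at 2.14-fold lower in rcMSC (log2 change -1.10, SE 0.31, edgeR adjusted p = 0.0141). The call was lost without rbMSC replicate 2, without rbMSC replicate 3 or without rcMSC replicate 1 (edgeR adjusted p = 0.067, 0.0504 and 0.0555), and the value was -1.36 without rcMSC replicate 3. Mx2 had 0.561, 0.562 and 0.317 CPM in rbMSC and 0.218, 0.479 and 1.28 CPM in rcMSC. The third rcMSC library alone put the rcMSC mean above that of rbMSC. The log2 change was 0.44 (edgeR adjusted p = 0.568) with that library and -0.44 (edgeR adjusted p = 0.505) without it.

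**Figure D2:**
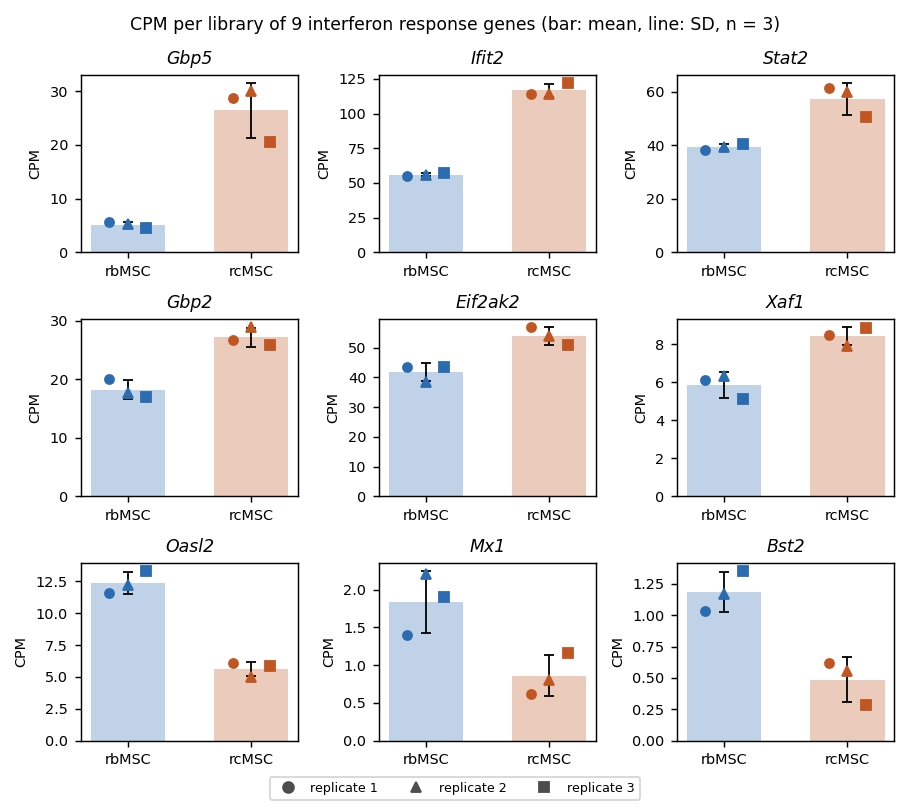
CPM of 9 interferon response genes in each rbMSC and rcMSC library (points, with a marker shape per replicate number), with bars for the group mean and lines for the SD (n = 3). The 9 were picked from the members past the threshold, and Gbp5 lies at 4.52 to 5.57 CPM in rbMSC and 20.6 to 30 CPM in rcMSC. The groups do not overlap in any of the 9, nor do they in 57.1% of all genes tested.

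ISG15 is a ubiquitin-like protein that is joined to other proteins after interferon, USP18 removes it and also damps the receptor, and TRIM25 is a ubiquitin ligase that activates the RNA sensor RIG-I. Trim25 had 22.3, 22.5 and 23.7 CPM in rbMSC and 28.6, 27.4 and 26.5 CPM in rcMSC. It rose by a log2 change of 0.27 (SE 0.07, edgeR adjusted p = 0.0132), and the call was lost without rbMSC replicate 1, without rbMSC replicate 2 or without rcMSC replicate 1 (edgeR adjusted p = 0.0579, 0.0532 and 0.0522). Usp18 had 1, 6 and 4 counts in rbMSC and 13, 19 and 10 in rcMSC, with no overlap. These are too few for the low-count filter. Without the filter its log2 change was 1.72 (SE 0.59, edgeR adjusted p = 0.0321), and without rcMSC replicate 3 it passed the filter, at 1.86 (edgeR adjusted p = 0.00762). It also passed the filter without rbMSC replicate 1, 2 or 3, with an edgeR adjusted p = 0.0908, 0.0311 and 0.0825. Isg15 had 1, 2 and 3 counts in rbMSC and 0, 2 and 0 in rcMSC. All of its 663 exon bases lie within exons of Agrn on the same strand, and no label used here says how reads in shared bases were counted. The 2 entries named Slfn4, which overlap on 1 strand, had nearly equal counts, at 161, 159 and 206 against 160, 158 and 206 in rbMSC. If reads in shared bases were counted for each gene, the Isg15 counts are an upper limit of its level. This was not tested.

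The proteins PARP9 and DTX3L act as a pair in ADP-ribosylation and ubiquitination after interferon, and both genes rose. Parp9 had 39.6, 38.3 and 39.1 CPM in rbMSC and 49.1, 51.8 and 42.3 CPM in rcMSC, a log2 change of 0.29 (SE 0.08, edgeR adjusted p = 0.0146). Dtx3l had 13.4, 12.5 and 16 CPM in rbMSC and 19.8, 21.5 and 16.8 CPM in rcMSC, a log2 change of 0.47 (SE 0.12, edgeR adjusted p = 0.0107). In both, rcMSC replicate 3 was the lowest rcMSC library and close to rbMSC. The genes lie head to head on chromosome 11 (64780981 to 64815455 and 64814926 to 64824538) and share 530 exon bases on opposite strands, so reads in that stretch cannot be told apart without strand information. The call of Parp9 was lost without rbMSC replicate 2, without rbMSC replicate 3 or without rcMSC replicate 2 (edgeR adjusted p = 0.0627, 0.0544 and 0.0622), and that of Dtx3l without rbMSC replicate 1 or 2 (edgeR adjusted p = 0.0522 and 0.0578). Without rcMSC replicate 3 the values were 0.37 and 0.56.

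Of the other ADP-ribosyltransferases, Parp12 fell and Parp14 did not pass. Parp12, which acts against RNA viruses, had 25.9, 24.1 and 25.2 CPM in rbMSC and 19.0, 19.1 and 22.3 CPM in rcMSC, with no overlap. Its log2 change was -0.31 (SE 0.09, edgeR adjusted p = 0.015). The call was lost without rbMSC replicate 1 or 3 and without rcMSC replicate 1 or 2 (edgeR adjusted p = 0.0645, 0.0535, 0.0612 and 0.0598). Parp14, which lies 78246 bases from Dtx3l, had a log2 change of 0.03 (95% interval -0.14 to 0.21, edgeR adjusted p = 0.765).

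The remaining effectors moved apart. Samhd1, which hydrolyses the nucleotides that retroviruses need for DNA synthesis, had 2.57, 2.68 and 4.16 CPM in rbMSC and 4.99, 4.68 and 5.04 CPM in rcMSC. The third rbMSC library was nearer to rcMSC than to its own group, and the log2 change was 0.63 (SE 0.20, edgeR adjusted p = 0.0257). The call was lost without rbMSC replicate 1, without rbMSC replicate 2 or without rcMSC replicate 1 (edgeR adjusted p = 0.105, 0.105 and 0.0655). Bst2, which encodes tetherin, a membrane protein that holds budding virus on the cell, had 22, 27 and 34 counts in rbMSC and 17, 15 and 7 in rcMSC. That is 1.03, 1.17 and 1.35 CPM against 0.619, 0.552 and 0.28 CPM, with no overlap. It was 2.42-fold lower in rcMSC (log2 change -1.27, SE 0.35, edgeR adjusted p = 0.0125), at -1.01 without rcMSC replicate 3, and the call was lost without rbMSC replicate 3 (edgeR adjusted p = 0.0566). Isg20, an RNA exonuclease that shares 1093 of its 2844 exon bases with Aen, was below the rbMSC libraries in all rcMSC libraries but did not pass (log2 change -0.20, edgeR adjusted p = 0.11).

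Of the IFI genes and Xaf1, Xaf1 alone passed. Xaf1, whose product opposes the apoptosis inhibitor XIAP, had 6.13, 6.36 and 5.11 CPM in rbMSC and 8.48, 7.92 and 8.88 CPM in rcMSC. Every rcMSC library was higher, with a log2 change of 0.52 (SE 0.13, edgeR adjusted p = 0.00847). Ifi27, a small protein of the mitochondrial and nuclear membranes and by level the first of its group, had 17.7, 20.8 and 20 CPM in rbMSC and 24.3, 26.2 and 20.4 CPM in rcMSC. The groups overlapped through rcMSC replicate 3, and the log2 change was 0.28 (edgeR adjusted p = 0.0596), or 0.37 without that library (edgeR adjusted p = 0.000175). Without the low-count filter Ifi27 passed at an edgeR adjusted p of 0.0463. Its 889 exon bases are spread over chromosome 6, 122590472 to 122779294, a span that also holds Ifi27l2b, Ppp4r4 and Serpina10 without shared exon bases. Of these, Ifi27l2b rose by 1.94 (edgeR adjusted p = 0.000128). How reads that fit both Ifi27 and Ifi27l2b were counted is not given, so the level of Ifi27 carries that limit. For Ifi35, 408 of 1983 exon bases are shared with Vat1 on the opposite strand, at a mean of 192 CPM in rbMSC and 246 CPM in rcMSC, and Vat1 rose by 0.35 (edgeR adjusted p = 0.000363), so its own counts are uncertain. Ifi35 (0.01) and Ifi44 (0.09) had overlapping groups (edgeR adjusted p = 0.967 and 0.619).

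**Figure D3:**
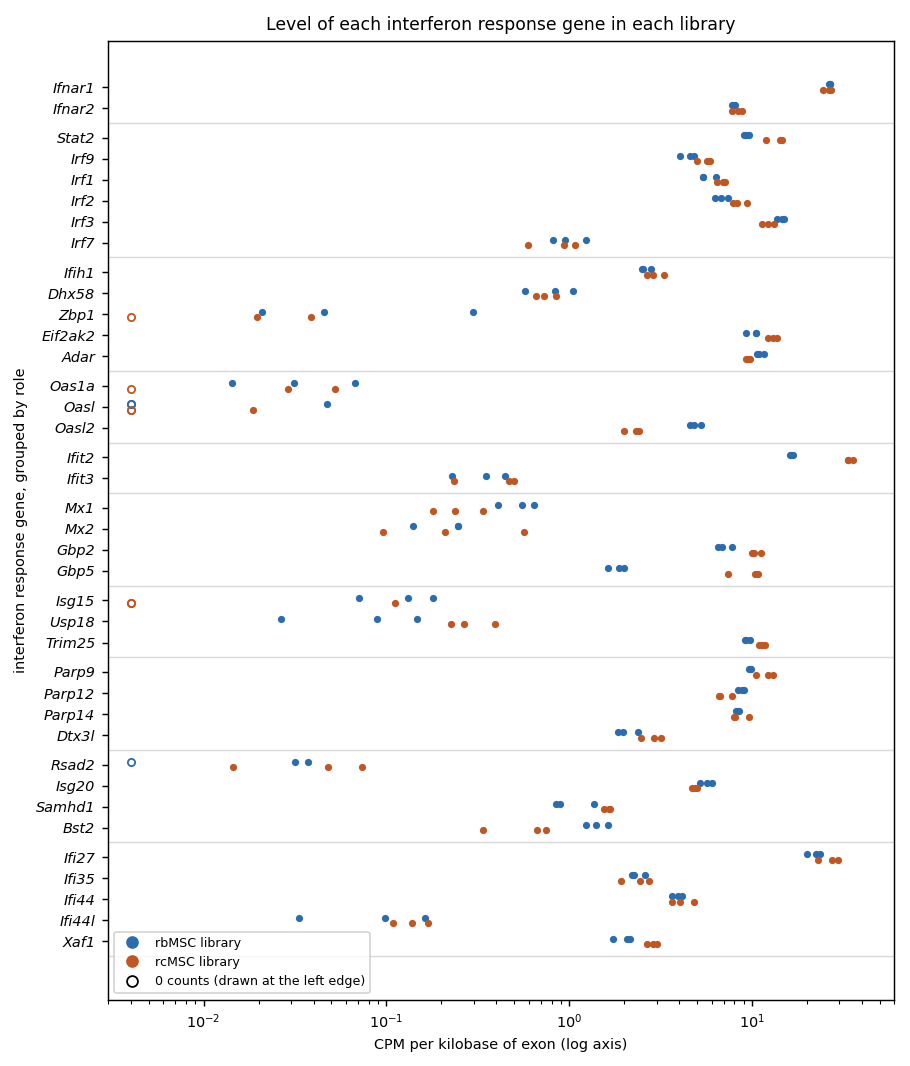
Level of each of the 38 interferon response genes in each library, as CPM per kilobase of exon on a log axis, grouped by role, with open symbols at the left edge for 0 counts. Ifit2, Ifi27 and Ifnar1 lie highest, while Oas1a, Oasl, Zbp1, Isg15 and Rsad2 lie near the level of single counts.

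Per kilobase, the order of the levels differed between the groups at its top. In rbMSC the highest were Ifnar1 (26.5 ± 0.21 CPM per kilobase), Ifi27 (22 ± 1.80) and Ifit2 (16.4 ± 0.34), and in rcMSC Ifit2 (34.2 ± 1.37), Ifi27 (26.6 ± 3.34) and Ifnar1 (26.0 ± 1.42, SD, n = 3 each). In rcMSC the levels of Ifi27 and Ifnar1 did not differ beyond their spread. Several genes that are strongly induced when cells meet interferon had few counts in both groups. Rsad2, which encodes viperin, had 2, 0 and 2 counts in rbMSC and 1, 5 and 3 in rcMSC. Oas1a had 4, 2 and 1 counts in rbMSC and 4, 0 and 2 in rcMSC. Their ratios of rcMSC to rbMSC were 1.97 (95% interval 0.55 to 8.76) and 0.751 (0.208 to 2.61), exact binomial intervals that cover counting error only. Both intervals include 1, and differences within them were not detectable at this depth. Zbp1, a sensor of Z-form nucleic acid, had 12, 2 and 1 counts in rbMSC and 2, 1 and 0 in rcMSC. Its ratio was 0.175 (0.0325 to 0.619), and 1 rbMSC library held 12 of the 15 rbMSC counts. Tested without the low-count filter, Zbp1 did not pass (log2 change -2.41, SE 1.15, edgeR adjusted p = 0.124). The ratio was 0.438 (0.00742 to 8.41) for Oasl, 0.292 (0.0288 to 1.63) for Isg15 and 1.42 (0.735 to 2.84) for Ifi44l.

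No count was found for most interferon genes themselves. Of the ligands looked up, Ifna1, Ifna4, Ifnb1, Ifng, Ifnk, Ifnl1 and Ifnl3 had 0 counts in all 6 libraries, which allows up to 0.109 to 0.14 CPM per library. Ifne, the epsilon interferon of epithelia, had 56 counts over the rbMSC and 55 over the rcMSC libraries (log2 change -0.20, edgeR adjusted p = 0.682). The cytokine gene Il6, kept in the same list, fell from 16.4 ± 0.42 to 9.22 ± 2.30 CPM (SD, n = 3 each; log2 change -0.83, edgeR adjusted p = 0.00211).

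In the signalling chain outside the set, the receptor subunits of interferon gamma moved in opposite directions. Ifngr1, its binding chain, had 77.7, 77.7 and 79.1 CPM in rbMSC and 52.1, 52.1 and 56.5 CPM in rcMSC, a log2 change of -0.54 (edgeR adjusted p = 5.02e-05). Ifngr2, its signalling chain, had 27, 29.5 and 30.4 CPM in rbMSC and 38.2, 35.9 and 33.6 CPM in rcMSC, at 0.31 (edgeR adjusted p = 0.00987), a call lost without rbMSC replicate 1 (edgeR adjusted p = 0.0529). Of the kinases, Tyk2, which serves IFNAR1, fell from 25.7 ± 2.30 to 16.8 ± 1.79 CPM (log2 change -0.61, edgeR adjusted p = 0.000831). Jak2, which serves the interferon gamma receptor, rose from 187 ± 4.46 to 232 ± 20.3 CPM (0.32, edgeR adjusted p = 0.00409), and Jak1 did not pass (0.03, edgeR adjusted p = 0.682). The feedback inhibitor Socs3 rose by 0.92 (edgeR adjusted p = 0.00313) and the phosphatase Ptpn6, abundant in blood cells, fell by 1.01 on the log2 scale (edgeR adjusted p = 7.29e-07). Of the 18 genes of this list tested, 3 were higher (16.7%) and 5 lower (27.8%), near the 22.6% and 23.2% of all genes tested. Without rcMSC replicate 3, 6 were higher and 5 lower, where 29.9% and 30.2% of all genes passed.

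Of 25 sensing genes tested outside the set, 2 were higher (8%) and 8 lower (32%) in rcMSC, beside 22.6% and 23.2% of all genes tested. Their median log2 change was -0.12. The 25 include 2 entries named Rnaseh2a with nearly the same counts, neither past the threshold, which may be counts of the same reads. Without rcMSC replicate 3, 4 sensing genes were higher and 10 lower, where 29.9% and 30.2% of all genes passed. Leaving out any 1 of the other 5 libraries left 1 higher. No share over all genes is given here for those 5 fits, so that count is not a result about the list. Irf8, a factor of the monocyte lineage, fell from 25.1 ± 2.15 to 6.86 ± 0.62 CPM (log2 change -1.87, edgeR adjusted p = 4.44e-07). Tlr9, the sensor of unmethylated DNA, fell by 1.88 and the inflammasome sensor Nlrp3 by 1.76 on the log2 scale (edgeR adjusted p = 0.00022 and 2.02e-05). Tlr4, the receptor for bacterial lipopolysaccharide, rose by 0.56 (edgeR adjusted p = 0.00087), and the adaptor of the RNA sensors, Mavs, did not pass (-0.07, edgeR adjusted p = 0.599). Beside these values, the median log2 change of the 22 macrophage markers tested was -0.77, from -2.13 in Cd74, which was called lower, to 0.87 in Fcgr2b, which was called higher.

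In a wider list of interferon-stimulated genes outside the set, 14 of 74 tested rose in rcMSC (18.9%) and 21 fell (28.4%), near the shares of all genes tested, 22.6% and 23.2%. Their median log2 change was 0.02, as over all genes. These include 2 entries named Slfn4 with nearly the same counts, both lower, which may be counts of the same reads. Among those whose log2 CPM averaged 0 or more, the genes that rose most were Casp4, a caspase that senses lipopolysaccharide (1.05), Ifitm3, which blocks the entry of viruses (0.90), and Nmi, the binding partner of IFI35 (0.70; edgeR adjusted p = 1.91e-06, 0.000554 and 0.00107). At the same level limit, those that fell most were Lgals9, a galectin (-1.82), Apobec1, a cytidine deaminase (-1.40), and Ifi47, a GTPase (-1.26; edgeR adjusted p = 0.000995, 8.27e-05 and 8.74e-05). The groups did not overlap in any of these 6 genes, which adds little, since they were picked for large changes past the threshold. Of all genes tested, 57.1% had no overlap. Under that limit lay Ifitm10, with 6 counts over the rbMSC and 69 over the rcMSC libraries (3.27, edgeR adjusted p = 0.00597), and Trim30c, with 54 and 18 (-1.75, edgeR adjusted p = 0.0337), both chosen after their values were seen.

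**Figure D4:**
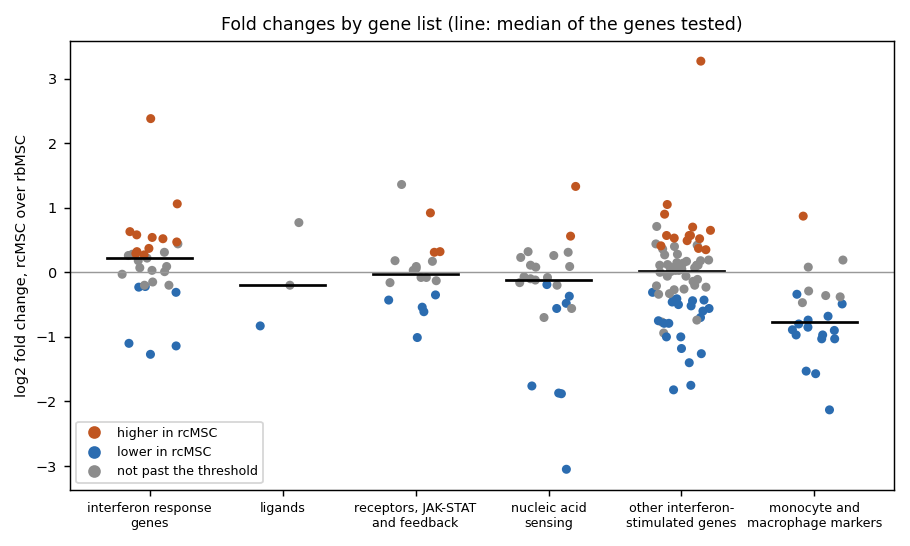
Log2 fold change of rcMSC over rbMSC (vertical axis) of each gene tested in the interferon response set, 4 other interferon lists and the monocyte and macrophage markers, with colours for the call and a line for the median of each list. The medians are 0.22, -0.20, -0.02, -0.12, 0.02 and -0.77 from left to right.

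The effect of the library that stood apart was small for most members. Of the 31 tested, rcMSC replicate 3 was the lowest rcMSC library in 16, and in 8 of the 11 that rose, where it was the lowest in 41.7% of all genes tested. Without it, the calls of all 17 members that passed were kept and Irf1, Irf9 and Ifi27 passed in addition. The direction changed in Mx2, and in Ifnar1 (0.01) and Parp14 (-0.06), which were near 0 with and without it.

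**Figure D5:**
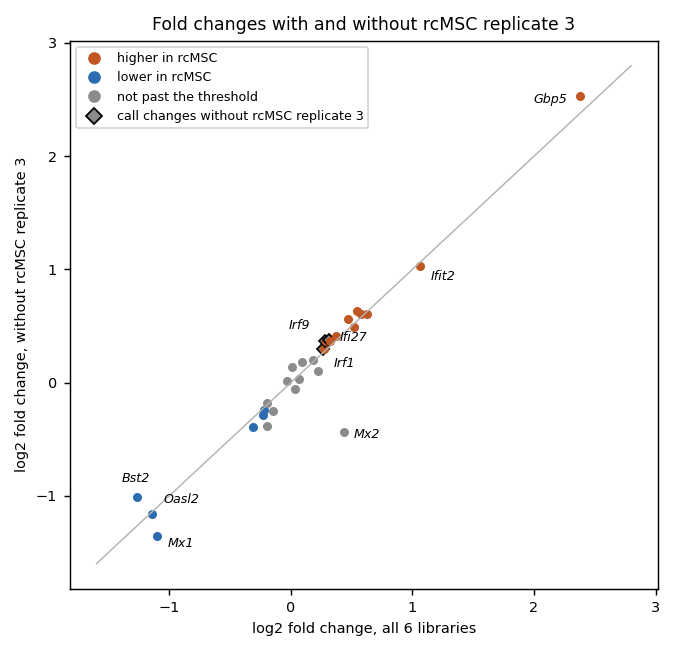
Log2 fold change of rcMSC over rbMSC for the 31 interferon response genes tested, with all 6 libraries (horizontal axis) and without rcMSC replicate 3 (vertical axis), with colours for the call with all libraries and outlined diamonds for the genes whose call changed. Most points lie near the line of equal values, and Mx2 moves from 0.44 to -0.44.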

How the data were processed

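The authors deposited whole-number read counts for each gene in each library, not normalized. Per the labels' protocols, paired reads of 150 nt were trimmed with Trim Galore 0.6.7 and Trimmomatic 0.39, mapped to mRatBN7.2 with STAR 2.7.9a and counted with featureCounts 2.0.1. The submitters' processing notes also name DESeq2 1.20.0. Strandedness, multi-mapping or shared reads and the annotation version: not given in the sources used here. The deposited gene length, per the file headers, was used only for levels per kilobase.

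The test was edgeR 4.0.16 (R 4.3.3), quasi-likelihood with robust estimation, TMM scaling, filterByExpr and Benjamini-Hochberg adjustment over 14836 genes, with an adjusted p under 0.05 as threshold. Log2 fold changes are rcMSC over rbMSC. The SE was taken as the size of the log2 change over the root of the F statistic, and 95% intervals use the fit's degrees of freedom. Alternatives were other scalings, other filters, DESeq2 1.42.0, limma 3.58.1 voom, dispersions without robust estimation, a replicate block and each library left out. A limit for 0 counts is 3 counts.

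Members and lists were chosen with earlier results of these data known. Every member is accounted for, and from each other interferon list up to 3 genes that rose and 3 that fell most (mean log2 CPM of at least 0) are named, with Jak1, Tyk2, Ifngr1, Ifngr2, Ifnb1 and Mavs whatever their values. Ifne, Ifitm10, Trim30c, Gbp4, Ifit1bl, Ifi27l2b, Bcl2l12, Slfn4, Rnaseh2a and the macrophage and MSC markers were named after their values were seen.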

Additional observations from a re-analysis of the deposited data

How the results depend on the processing

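Of the 17 members past the threshold, 7 kept their call and direction in all 14 alternatives (Stat2, Eif2ak2, Ifit2, Gbp2, Gbp5, Xaf1 and Oasl2), and no called member changed sign in any. Irf9, Irf1 and Ifi27 passed with limma voom (0.37, 0.29 and 0.35; adjusted p = 0.00772, 0.00972 and 0.00151). Leaving out 1 library gave 7 to 15 members higher, 2 to 6 lower, 2 to 6 higher genes in the receptor and JAK-STAT list and 1 to 4 higher sensing genes. Calls over all genes moved as well. With all libraries 22.6% were higher and 23.2% lower, and without rcMSC replicate 3 these shares were 29.9% and 30.2%. For the other settings no share over all genes is set beside these counts, so they are not a result about the lists. Sensing genes higher in rcMSC numbered 1 with DESeq2, with the stricter filter of 1 CPM or with the replicate block, and 4 with limma voom, which also gave 6 higher in the JAK-STAT list. The cause was not tested. Among genes that did not pass, the sign changed with limma voom in Ifnar1 (0.00), Mx2 (-0.35) and Parp14 (-0.04). Leaving out 1 library it ranged from -0.06 to 0.01 in Ifnar1, -0.44 to 0.87 in Mx2, -0.06 to 0.08 in Parp14, -0.10 to 0.14 in Ifi35, -0.35 to 0.07 in Dhx58, -0.38 to 0.01 in Irf7, -0.02 to 0.18 in Ifi44 and -0.11 to 0.00 in Mavs. The labels do not say whether same-numbered libraries belong together. Their deviations from the group mean correlated at -0.0275, 0.018 and -0.0518 across genes, and those of unlike-numbered libraries at -0.0582 to 0.0641. With few libraries and rcMSC replicate 3 standing apart, these values cannot decide it. With the replicate block, 11 members were higher and 5 lower, Irf3 being lost (adjusted p = 0.0768), and Ifi35 was at 0.00. Depth limits Rsad2, Oas1a, Oasl, Zbp1 and Ifi44l, and shared exons limit Isg15 and Irf9.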
